A study of Mus musculus with 12 samples.

Results

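Pancreatic islets of 12-week-old (12w) Tg7 mice were compared with islets of Wt littermates of the same age across all expressed genes, using 6 of the 12 RNA-seq libraries of the series, 3 from Tg7 and 3 from Wt mice. Tg7 mice carry an extra supply of the microRNA miR-7a2 that is limited to β-cells, and at 12w they are hyperglycaemic, so the comparison describes islets in established diabetes. All animals were C57BL/6 males, and the controls were labelled wild-type. The other 6 libraries came from 2-week-old (2w) Tg7 and Wt males, which the study describes as normoglycaemic. Islets were freed with Liberase and purified on a Histopaque gradient, without sorting, and a library held the islets of at least 3 animals in 1 pool. The sources used here do not name the promoter of the transgene.

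β-cells are the insulin-producing cells of the islet and take up glucose, burn it in mitochondria and release insulin granules when the resulting rise in ATP closes potassium channels and lets calcium in. Loss of this mature state, with return of progenitor genes, is called β-cell dedifferentiation. miR-7 is an abundant microRNA of endocrine cells, and microRNAs lower the stability or translation of messages whose 3′ UTR pairs with their seed, bases 2 to 8 of the mature strand. The mature sequence is shown because the whole comparison rests on its excess. It is taken from RefSeq (GRCm38.p6), where 2 loci encode it, with the seed in capitals.
mmu-miR-7a-5p: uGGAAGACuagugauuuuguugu
A perfect match to the seed followed by an A reads GTCTTCCA in a message. Of the genes that were lower in Tg7 islets at 12w and held this 8-base match in an annotated 3′ UTR, the 5 with the smallest p are shown as windows of 30 bases with the match in capitals, read on mm9 in the direction of the transcript.
Ero1lb: ctgaatgcctaGTCTTCCActacagaggtg
Mlph: gagcatcagggGTCTTCCAcacctctgctc
Arl8b: acctcttcttcGTCTTCCAgtccccttggc
Tmem229b: tggttaggactGTCTTCCAactggacagct
Abhd2: accaactttgtGTCTTCCAtgccagagcag
These windows lie in the 3′ UTRs at chr13:12700423-12700452 for Ero1lb, chr1:92847597-92847626 for Mlph, chr6:108771548-108771577 for Arl8b, chr12:80062897-80062926 on the minus strand for Tmem229b and chr7:86507729-86507758 for Abhd2. A match describes letters in the message and was not tested for binding.

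The libraries held 11610697 to 17227642 gene counts in Wt islets and 16248397 to 17064546 in Tg7 islets. Ins2 had the highest mean level in both groups, with the glucagon gene Gcg and the amylin gene Iapp among the 4 highest. Summed acinar markers took at most 0.0158% of the counts of a library and T and NK lymphocyte markers at most 0.00044%. Hepatocyte markers took up to 0.0401% and ductal markers up to 0.107%, more than macrophage markers (at most 0.0103%). The highest ductal share, in Tg7 1, came mostly from Krt7 and Spp1. Insulin genes took a mean of 23.95% ± 8.02 of the counts in Wt and 8.145% ± 0.0862 in Tg7 libraries (SD, n = 3), so TMM factors from edgeR were used for scaling, and levels are given as CPM, the TMM-scaled counts of a gene relative to all counts of its library. Scaling to library size alone would move the median change over all tested genes, on the log2 scale, from −0.01 to 0.43. It moves list medians by about as much, and of the negative ones given for gene function lists only those of glucose sensing (−0.16), mitochondrially encoded subunits (−0.23), the unfolded protein response (−0.12) and epithelial junctions (−0.10) stayed below 0. The Tg7 libraries were more alike than the Wt libraries, with a median coefficient of variation of 6.39% against 19.5% over 9477 genes at 10 CPM or more in both groups. In a principal component analysis the first component held 54.7% of the variance and separated the groups, and the second, with 22%, separated Wt 4 from Wt 1. The Wt libraries are numbered 1, 2 and 4, and values are given in the order Wt 1, 2, 4 and Tg7 1, 2, 3. The excess of miR-7 cannot be checked in these files, because the hairpin genes held few reads, with 17 counts in Wt and 11 in Tg7 for Mir7-2 and 29 and 35 for Mir7-1 over the 3 libraries. Because the libraries are pools of whole islets, fewer cells of a type and less RNA per cell cannot be told apart, and p-values measure the spread between pools.

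Of 15961 tested genes, 12.5% had a higher and 11.2% a lower level in 12w Tg7 islets, called by edgeR's quasi-likelihood test with a Benjamini-Hochberg adjusted p under 0.05. Together these were 3772 genes, and the number was 2417 or 2418 without Tg7 2 or Tg7 3. The 1783 lower calls became 1030, 1014 and 1012 without Tg7 1, 2 and 3. With library-size scaling the split was 5198 higher and 360 lower, against 1989 and 1783 with TMM. A gene is therefore said to have risen or fallen only where the call was stable, that is, passed with the same sign with all libraries and again with each of the 6 libraries of 12w left out. Sizes of rises and falls are log2 fold changes unless given as a level, and coordinates are on mm9. Stable calls covered 1191 genes that rose, 7.46% of those tested, and 824 genes that fell, 5.16%. Counts of list members given below are to be read beside these shares. The rises were larger: 831 of them reached 2-fold, 336 reached 4-fold and 153 reached 8-fold, against 322, 86 and 35 of the falls. The median level over both groups was 59.1 CPM for the genes that fell and 14.7 CPM for those that rose, not corrected for gene length. At 2w 471 of the risen and 379 of the fallen genes were also called in the same direction, where 6.07% of all genes were higher and 4.55% lower, and 2 of each were called in the opposite direction.

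**Figure D1:**
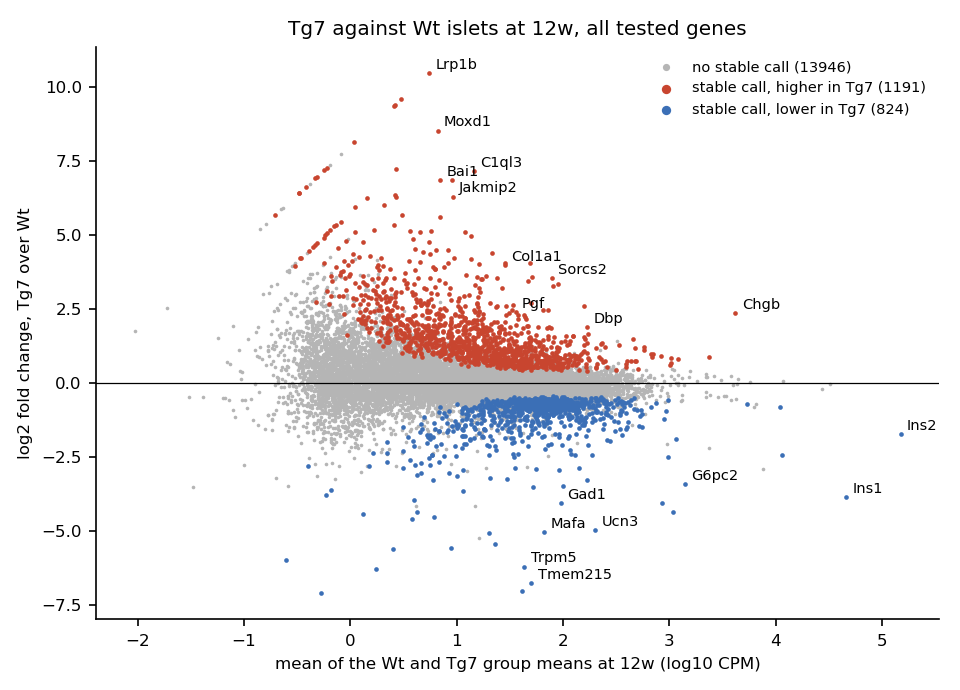
Fitted log2 fold change of Tg7 over Wt islets at 12w (vertical axis) against mean level in log10 CPM (horizontal axis) for 15961 genes, with the 1191 stable rises in red and the 824 stable falls in blue. Ins2 and Ins1 lie at the right edge below 0 and Chgb at the right above 0, and fitted values of genes with hardly any Wt count, such as Lrp1b, depend on the prior count.

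The genes that fell furthest included markers of the mature β-cell and genes of electrical activity, respiration and zinc binding. Cox6a2, a subunit of respiratory complex IV found in few tissues (chr7:135348950-135349880), stood at 87.7, 112 and 45.9 CPM in the Wt libraries and 0.62, 0.332 and 0.915 CPM in the Tg7 libraries (log2 fold change −7.02, SE 0.74, adjusted p = 1.99e-05). Tmem215, a transmembrane protein (chr4:40419213-40424201), stood at 83.4, 85.7 and 131 CPM in the Wt libraries and 0.507, 1.16 and 1.09 CPM in the Tg7 libraries (log2 fold change −6.76, SE 0.29, adjusted p = 2.38e-08). Trpm5, a calcium-gated cation channel that aids depolarization (chr7:150255058-150280547), stood at 99.2, 76.5 and 80.9 CPM in the Wt libraries and 0.507, 1.6 and 1.37 CPM in the Tg7 libraries (log2 fold change −6.19, SE 0.37, adjusted p = 1.62e-07). The 3 Tg7 libraries lay more than an order of magnitude below the lowest Wt library for each of these genes. Mafa, a transcription factor of mature β-cells, was at 45.4, 170.4 and 170 CPM in the Wt libraries and 4.57, 3.54 and 3.83 CPM in the Tg7 libraries (log2 fold change −5.02, SE 0.41, adjusted p = 2.41e-06), and Wt 1 was the lowest of its group. Ucn3, the urocortin released with insulin that also marks maturity, was at 518, 379.9 and 267 CPM in the Wt libraries and 11.1, 13.4 and 12.8 CPM in the Tg7 libraries (log2 fold change −4.96, SE 0.34, adjusted p = 3.60e-07). Gad1, which makes GABA, fell from 139.5, 163 and 240.3 CPM to 9.42, 11.1 and 12.3 CPM (log2 fold change −4.05, SE 0.24, adjusted p = 1.62e-07). The metallothioneins Mt1 and Mt2, which bind zinc, fell by 4.34 and 4.03 on the log2 scale, and both varied widely among the Wt libraries, with Mt1 at 3343, 2153 and 714 CPM. The others of the 12 lowest fold changes were Mlph (−5.56), a melanophilin that links Rab27 vesicles to myosin, Msln (−5.41), Olfm4 (−5.07) and Rpp25 (−4.5). The ranking required no overlap between the groups, a condition that all 824 stable falls met. Adora1, the adenosine A1 receptor, was among the falls with the smallest p, from 79.7, 113 and 97.6 CPM to 8.85, 8.63 and 8.3 CPM (log2 fold change −3.49, SE 0.17, adjusted p = 3.65e-08).

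Genes that were near silent in Wt islets came on in all 3 Tg7 libraries. Lrp1b, a giant lipoprotein receptor relative (chr2:40450768-42509118), had no count in any Wt library and 195, 165 and 231 counts in the Tg7 libraries, which makes it at least 131-fold higher against a floor of 3 counts over the group (adjusted p = 5.22e-06). Moxd1, a monooxygenase related to dopamine β-hydroxylase, had 1 Wt count and 705 Tg7 counts, a ratio of 470 with a 95% counting interval from 84.1 to 1.86e+04. C1ql3, a secreted synaptic C1q-like protein, stood at 0.126, 0 and 0.40 CPM in the Wt libraries and 32.6, 26.2 and 28.4 CPM in the Tg7 libraries (log2 fold change 7.17). Several of the 12 highest fold changes belonged to genes better known from neurons or development. Crabp2, which carries retinoic acid to its receptors, rose by 6.87 with a wide SE of 1.62 (adjusted p = 0.0076). Bai1, an adhesion receptor, rose by 6.85, Jakmip2 by 6.3, Camk2a, a calcium-dependent kinase of neurons, by 5.61 and Cngb1, a cyclic nucleotide-gated channel subunit, by 5.15. Vstm2a rose by 5.11, the growth factor Gdf10 by 4.96, the long noncoding RNA Miat by 4.78 and Opcml, a neural adhesion protein, by 4.51. The size of these folds hangs on a handful of Wt reads, and without Wt 4 they became 10.74 for Moxd1, 9.0 for C1ql3, 7.04 for Camk2a and 6.85 for Vstm2a and fell to 6.13 for Crabp2. Without Wt 2 they were 6.89 for Cngb1 and 6.56 for C1ql3, and without Wt 1 7.76 for Crabp2. Among the rises with the smallest p, Pcp4l1 went from 7.56, 7.7 and 8.47 CPM to 93.1, 96.5 and 94.1 CPM (log2 fold change 3.57, SE 0.16, adjusted p = 2.38e-08), and Sorcs2, a sortilin-family receptor, from 12, 10.7 and 14.3 CPM to 129.6, 156 and 149 CPM (log2 fold change 3.55, SE 0.18, adjusted p = 5.42e-08). Gpr179 (4.08) and Iqsec3 (4.4) followed, with Tg7 libraries between 32.6 and 57.8 CPM and no Wt library above 3.53 CPM.

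**Figure D2:**
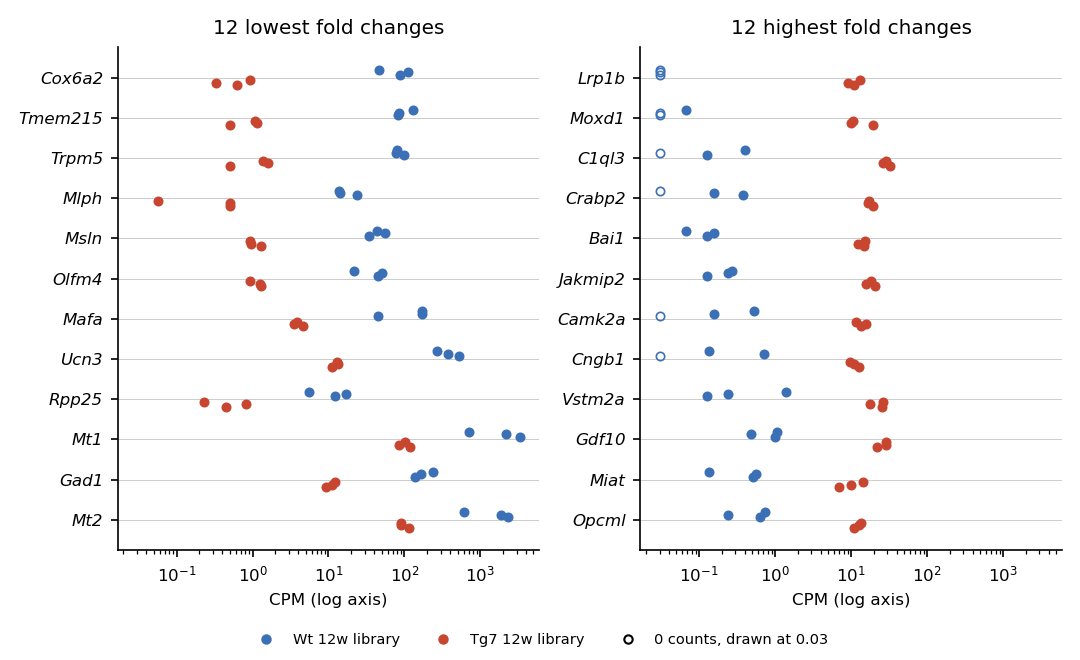
Level of the 12 genes with the lowest (left) and the 12 with the highest (right) stable fold changes in each library, in CPM on a log axis, with Wt libraries in blue, Tg7 libraries in red and libraries without a count as open circles at the left edge. The pick required no overlap between groups, a condition that all 1191 stable rises and 824 stable falls met. Among all tested genes, 20.7% had all Tg7 above all Wt libraries and 16.3% had them below. Mt1 runs from 714 to 3343 CPM among the Wt libraries.

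Among the genes with the most counts the insulin genes and chromogranin B moved in opposite directions, while glucagon and amylin had no call. Ins2 stood at 311820, 250480 and 126760 CPM in the Wt libraries and 71170, 69139 and 70589 CPM in the Tg7 libraries (log2 fold change −1.71, SE 0.36, adjusted p = 0.004), and Ins1 at 127150, 87559 and 43794 CPM in the Wt libraries and 6565, 5352 and 6029 CPM in the Tg7 libraries (log2 fold change −3.85, SE 0.42, adjusted p = 2.51e-05). Wt 4 held the least insulin message of its group, and the share of counts on both genes was 29.99%, 27.01% and 14.85% in Wt and 8.079%, 8.114% and 8.242% in Tg7 libraries (exact permutation test, two-sided p = 0.10, the smallest that 3 against 3 can give). How reads that match both insulin genes were counted is not stated, so the split between them is uncertain. Chgb, chromogranin B of secretory granules (chr2:132607014-132620815), rose from 820.4, 1536 and 1712 CPM to 8137, 5816 and 7102 CPM (log2 fold change 2.37, SE 0.23, adjusted p = 1.08e-05). Gcg was at 44145, 29916 and 23955 CPM in the Wt libraries and 41168, 28338 and 27366 CPM in the Tg7 libraries (log2 fold change −0.02, SE 0.28, adjusted p = 0.98), and the log2 fold change of Iapp was −0.2 (adjusted p = 0.55), that of Chga 0.09 (adjusted p = 0.8) and that of Scg2 0.04 (adjusted p = 0.94). Lars2 fell by 2.41 on the log2 scale but rested largely on Wt 1, with 44426, 6886 and 6080 CPM in Wt and 3378, 3341 and 4075 CPM in Tg7 libraries, the fold change was −0.87 without Wt 1, and DESeq2 on the 12w libraries alone gave no call. The short RNA gene mmu-mir-689-2 showed the same outlying library at 33820, 3119.8 and 2972 CPM in Wt and lost its call when single libraries were left out. Of 18 granule and prohormone genes, 4 rose and 4 fell, with a median of 0.02. Slc30a8, the zinc transporter of insulin granules, fell from 556, 511 and 663 CPM to 189.9, 221 and 189.8 CPM (log2 fold change −1.53, SE 0.13, adjusted p = 3.93e-06).

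Of 19 genes by which β-cells sense glucose and couple it to secretion, 7 fell and none rose, with a list median of −0.59 against −0.01 over all tested genes. G6pc2, the islet glucose-6-phosphatase (chr2:69049130-69065898), stood at 2609.8, 2393 and 2712 CPM in the Wt libraries and 255, 221 and 256 CPM in the Tg7 libraries (log2 fold change −3.4, SE 0.21, adjusted p = 1.88e-07). Slc2a2, the glucose transporter GLUT2, stood at 208, 173 and 363 CPM in the Wt libraries and 21.4, 43.4 and 36.6 CPM in the Tg7 libraries (log2 fold change −2.88, SE 0.3, adjusted p = 1.87e-05). The potassium channel subunits that glucose metabolism closes gave smaller values, Abcc8 a log2 fold change of −0.41 (adjusted p = 0.088) and Kcnj11 one of −0.61 (adjusted p = 0.014, without a stable call). Among 20 islet transcription factors 1 rose (5%) and 2 fell (10%), with a median of −0.01. Besides Mafa, Neurod1 fell from 289, 222 and 203 CPM to 150.2, 141 and 136 CPM (log2 fold change −0.74, SE 0.13, adjusted p = 0.0012), and its call was lost with library-size scaling. Rfx6, needed for islet development and β-cell function, rose from 109, 71 and 109.5 CPM to 159, 168 and 150.3 CPM (log2 fold change 0.72, SE 0.17, adjusted p = 0.0073). Nkx6-1, a β-cell identity factor, had a log2 fold change of −0.37 (adjusted p = 0.045) and no stable call.

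Of 11 tested progenitor and dedifferentiation genes 4 rose and none fell, with a median of 1.48. Cd81, a tetraspanin of immature β-cells, rose from 91.3, 97.7 and 61.9 CPM to 274, 259 and 257 CPM (log2 fold change 1.66, SE 0.16, adjusted p = 1.01e-05). Neurog3, the master factor of endocrine progenitors, rose from 8.95, 5.4 and 8.13 CPM to 18.8, 31.7 and 21.6 CPM (log2 fold change 1.69, SE 0.27, adjusted p = 5.75e-04). Aldh1a3, a retinaldehyde dehydrogenase used as a marker of failing β-cells, rose from 0.504, 3.49 and 5.2 CPM to 18.7, 12.1 and 18.5 CPM (log2 fold change 2.35, SE 0.5, adjusted p = 0.0039), and Gast, the gastrin gene of the fetal pancreas, rose by 3.2 to at most 5.03 CPM. Disallowed genes are housekeeping genes that β-cells normally keep silent, and 4 of 20 rose, none fell and the median was 0.51. Slc16a1, the lactate and pyruvate transporter, rose from 1.89, 1.43 and 1.33 CPM to 5.07, 5.26 and 6.06 CPM (log2 fold change 1.83, SE 0.29, adjusted p = 4.89e-04). The high-affinity hexokinases Hk1 and Hk2 rose by 0.66 and 2.91, with Hk2 at no more than 3.26 CPM, and the ornithine aminotransferase Oat rose by 1.55.

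Exocytosis genes split. Of 34, 5 rose (14.7%) and 4 fell (11.8%), and the median was −0.07. Sytl4, granuphilin, which docks insulin granules, fell from 264, 231 and 413 CPM to 28.8, 34.4 and 31.9 CPM (log2 fold change −3.26, SE 0.26, adjusted p = 1.70e-06). The calcium sensor gene Syt4 fell by 1.55 on the log2 scale. Of 14 genes known as miR-7 targets from earlier work, 3 fell and 1 rose, with a median of −0.04. Dnajc5, the cysteine string protein of vesicles, fell from 209, 174 and 204 CPM to 101, 115 and 112 CPM (log2 fold change −0.83, SE 0.12, adjusted p = 1.88e-04). Egfr, the epidermal growth factor receptor, fell by 0.88 and the cap-binding factor Eif4e by 0.55, while the kinase Pak1 rose by 1.07. The calls of Dnajc5, Egfr and Eif4e were lost with library-size scaling, which shifts the median upward.

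Messages with miR-7 seed matches had slightly lower median fold changes than those without, and so had messages with long 3′ UTRs and no match. Of 14403 tested protein-coding genes with an annotated 3′ UTR on mm9, 568 held GTCTTCCA, 1328 held GTCTTCC without the 8-base match and 1693 held only TCTTCCA, each read on the sense strand, which is 3.94%, 9.22% and 11.8%. The median log2 fold change was −0.08, −0.11 and −0.04 in these classes and −0.01 in the 10814 genes with none. Stable falls made up 8.10%, 8.81% and 6.67% of the 3 classes, against 4.86% without a match and 5.57% of all these genes. The UTRs with a match were longer, with medians of 2292, 2250 and 2038 bases against 897. Among the longest UTRs (1776 bases or more) stable falls were 10.7% for the 8-base match, 10.1% for the 7 bases that pair with the whole seed, 7.78% for the match with A and 7.66% for none. In the shortest UTRs stable falls were 2.13% for the 8-base match, which is 1 of 47 genes, and 2.96% for none. The 7 bases that pair with the whole seed gave 4.0% there and the match with A 5.29%. In the class between, the 8-base match gave 3.8%, which is 6 of 158 genes, and none 5.18%. The whole-seed match gave 7.65% in that class and the match with A 4.99%. The share that rose among the longest UTRs was 9.64%, 6.07%, 8.18% and 8.73%. UTR length moves with these shares, and its part in them was not tested.

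The 5 genes with the 8-base match whose windows are shown above fell in all Tg7 libraries. Ero1lb, the oxidoreductase that forms disulphide bonds in β-cell proinsulin, fell from 1317, 1493 and 2189 CPM to 293, 289 and 307 CPM (log2 fold change −2.49, SE 0.18, adjusted p = 9.53e-07). Arl8b, a small GTPase that moves lysosomes, fell from 255, 202 and 232 CPM to 93, 86.4 and 81 CPM (log2 fold change −1.4, SE 0.13, adjusted p = 5.87e-06). Tmem229b fell from 111, 156 and 108 CPM to 32.3, 29 and 29.1 CPM (log2 fold change −2.06, SE 0.21, adjusted p = 1.29e-05). The lipase-fold gene Abhd2 fell from 238, 215 and 386 CPM to 67.7, 67.9 and 60.6 CPM (log2 fold change −2.1, SE 0.22, adjusted p = 1.55e-05), and Mlph from 23.4, 14.4 and 13.7 CPM to 0.507, 0.498 and 0.0572 CPM. These genes were picked for their falls and are described, not counted as evidence for the match.

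Genes that let β-cells respond to prolactin and make serotonin, as they do in pregnancy, gave 3 falls and 1 rise among 14. Prlr, the prolactin receptor, fell from 529.5, 327 and 473 CPM to 125, 100 and 122 CPM (log2 fold change −1.94, SE 0.19, adjusted p = 8.91e-06). Maob, which degrades monoamines, fell from 214, 157 and 227 CPM to 37.2, 39.4 and 36.9 CPM (log2 fold change −2.4, SE 0.15, adjusted p = 1.88e-07), and the vesicular monoamine transporter Slc18a1 fell by 2.22. Cish, a cytokine-induced inhibitor of such receptors, rose from 20.7, 23.2 and 26.5 CPM to 53.7, 44.7 and 47.9 CPM (log2 fold change 1.05, SE 0.13, adjusted p = 9.32e-05).

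Of 20 glycolysis and lactate genes 4 rose and 1 fell, with a median of −0.01: Gpi1 went from 162, 187 and 148 CPM to 277, 291 and 308 CPM, Pfkfb3, whose product activates phosphofructokinase, from 7.56, 12.6 and 16.9 CPM to 37.7, 37.6 and 37.3 CPM, and the glucose transporter Slc2a1 fell from 33.3, 46.8 and 30.7 CPM to 14.9, 10.9 and 18.6 CPM. All 23 pyruvate dehydrogenase and TCA cycle genes had estimates below 0, but 2 fell, Pcx by 1.15 and Fh1 by 1.13, and the list median of −0.26 became 0.19 with library-size scaling. Pcx makes oxaloacetate from pyruvate and Fh1 is fumarase. Of 80 respiratory chain subunits encoded in the nucleus, Cox6a2 fell and Ndufa1 rose by 0.85, and the median was −0.17 (0.30 with library-size scaling). The 13 subunits encoded in mitochondria had a median of −0.67, and 5 fell, among them mt-Co1 from 14984, 13417 and 13297 CPM to 9025, 7084 and 7668 CPM (log2 fold change −0.81, SE 0.16, adjusted p = 0.0026), mt-Cytb by 0.70 and mt-Nd6 by 1.58. With library-size scaling the calls of mt-Co1 and mt-Cytb were lost and the list median was −0.23, and without Wt 1 the fold change of mt-Nd6 was −0.89. Of 15 glucose-responsive and lipogenic genes 3 rose and 1 fell, with a median of −0.21 (0.29 with library-size scaling). Pklr, pyruvate kinase and a target of the glucose sensor ChREBP, rose from 13, 9.45 and 10.5 CPM to 19.3, 26.9 and 21.3 CPM, Klf10 rose by 0.95, and the fatty acid elongase Elovl6 fell by 1.25. Of 22 cholesterol synthesis genes Sc4mol fell by 0.94 and Fdps by 0.67, the latter without a call under library-size scaling. Among 29 antioxidant and metallothionein genes 2 rose (6.9%) and 3 fell (10.3%), beside 7.46% and 5.16% of all tested genes. Prdx4, the peroxiredoxin of the endoplasmic reticulum (ER), rose from 27.1, 26 and 20.1 CPM to 93, 84.5 and 97.1 CPM (log2 fold change 1.91, SE 0.16, adjusted p = 2.81e-06).

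Of 34 ER chaperone and unfolded protein response genes 8 fell and none rose, with a median of −0.56. Dnajb9, an ER co-chaperone, fell from 582, 427 and 775 CPM to 234, 193 and 209.6 CPM (log2 fold change −1.49, SE 0.17, adjusted p = 4.52e-05), and Xbp1, the transcription factor of this response, fell by 0.49. Hspa5, the chaperone BiP, stood at 3088, 5076 and 5581 CPM in the Wt libraries and 3510, 2862 and 2935 CPM in the Tg7 libraries (log2 fold change −0.56, SE 0.22, adjusted p = 0.084) and had no call. Of 39 ER translocation and vesicle coat genes 4 fell and none rose, among them the translocon channel Sec61a1 by 0.80, Sec24a by 0.94 and Sec24c by 0.52, and the list median of −0.19 became 0.26 with library-size scaling, which also removed the calls of Xbp1, Sec61a1 and Sec24c. None of the 80 cytosolic ribosomal protein genes had a call by edgeR, 6 had an unadjusted p under 0.05, DESeq2 called 2, and the median was 0.13. With library-size scaling 64 of them were called higher (median 0.60, beside 0.43 over all tested genes), and with the replicate block 1 was called lower. Of 36 proteasome subunits only the immunoproteasome gene Psmb8 had a stable call, a rise of 0.89. The V-ATPase is the proton pump that acidifies granules and lysosomes, and of 33 V-ATPase and cathepsin genes 4 fell (12.1%) and none rose. All 4 encode cytosolic V1 subunits, with Atp6v1a going from 188, 161 and 256 CPM to 61.2, 58.8 and 64 CPM (log2 fold change −1.72, SE 0.16, adjusted p = 6.25e-06), Atp6v1e1 from 313, 418 and 332 CPM to 135, 130.2 and 143 CPM and Atp6v1b2 from 633, 764 and 706 CPM to 422, 359 and 354 CPM. The median of that list was −0.24, or 0.19 with library-size scaling.

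Few proliferation genes had a stable call. Of 31 S, G2 and M phase genes only the replication helicase gene Mcm7 had a stable call (0.65), while 26 had estimates above 0. The list median was 0.47, or 0.90 with library-size scaling, beside −0.01 and 0.43 over all tested genes. Of 15 G1 genes Ccnd2, the main cyclin D of β-cells, fell from 721, 687 and 1041 CPM to 274, 305 and 295 CPM (log2 fold change −1.49, SE 0.17, adjusted p = 3.45e-05), and Cdk2 rose by 1.29. Of 23 p53 target and Bcl2 family genes 4 rose and 1 fell, with Bax, which permeabilizes mitochondria in apoptosis, at 40.8, 55.4 and 44.4 CPM in the Wt libraries and 66.3, 69.6 and 71.5 CPM in the Tg7 libraries (log2 fold change 0.56, SE 0.13, adjusted p = 0.0059) and the death receptor Tnfrsf10b up by 1.21. Zmat3 fell by 0.61, without a call under library-size scaling. Among 25 immediate early genes Egr1 rose from 17.8, 19.7 and 20 CPM to 68.5, 74.1 and 77.5 CPM, Egr2 rose by 2.47 and Jund fell by 0.80, the last without a call under library-size scaling. Of 16 hypoxia targets 2 rose and 2 fell, with Egln3 up by 2.47 and Ero1l down, at a log2 fold change of −1.09. Of 17 circadian clock genes 5 rose and 2 fell. Dbp, a clock-driven transcription factor, rose from 64.7, 82.3 and 67.3 CPM to 249.8, 268 and 275 CPM (log2 fold change 1.89, SE 0.13, adjusted p = 5.17e-07), Nr1d1, the repressor REV-ERBα, from 67.3, 59.8 and 57.4 CPM to 169, 204 and 187 CPM, and Per3 from 39.3, 42.5 and 31.3 CPM to 104, 108 and 109 CPM. Nfil3, which opposes Dbp at shared sites, fell from 16, 24.8 and 19.2 CPM to 9.7, 8.91 and 9.38 CPM (log2 fold change −1.1, SE 0.18, adjusted p = 6.16e-04). The sources used here do not give the hour at which islets were taken, and its part in this pattern was not tested.

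Of 32 collagen genes 18 rose and 1 fell, with a median of 1.58, and 11 of them differed from their 2w effect. Col1a1, the chain of fibrillar collagen I, stood at 4.03, 3.89 and 2.4 CPM in the Wt libraries and 55.8, 42.4 and 63.2 CPM in the Tg7 libraries (log2 fold change 4.0, SE 0.24, adjusted p = 1.65e-07), Col3a1 rose by 3.46 and Col5a1 by 3.87. The basement membrane collagens Col4a1 and Col4a2 rose by 1.05 and 1.29. Of 14 laminin and basement membrane genes 5 rose, led by Lama5, which went from 13.4, 15.6 and 14.9 CPM to 77, 62.1 and 77.6 CPM (log2 fold change 2.3, SE 0.14, adjusted p = 1.55e-07). Of 29 matricellular, elastic fibre and crosslinking genes 18 rose and none fell, with a median of 1.61. Thbs1, thrombospondin and an activator of TGFβ, rose from 103, 93.7 and 172 CPM to 283, 306 and 261 CPM, Spp1, osteopontin, from 102, 144 and 142 CPM to 489.9, 199.7 and 289 CPM, and Lum by 3.81. Lox, the collagen crosslinker, had no Wt count and 41 Tg7 counts, at least 9.11-fold higher. Of 23 matrix proteases and inhibitors 8 rose, with Timp2 up by 1.08 and Adamts2, which trims procollagen, by 3.57 (4.25 without Wt 1). Mmp3 had 0 Wt and 50 Tg7 counts, at least 11.1-fold higher. Of 41 TGFβ family genes 9 rose and none fell, with a median of 0.51. Bmp2 went from 4.03, 3.1 and 1.73 CPM to 18.7, 18 and 16.5 CPM (log2 fold change 2.62, SE 0.29, adjusted p = 3.15e-05), and Bmp7 rose by 1.66. Ltbp3, a latent TGFβ-binding protein, and Bmp1, which processes procollagen, rose by 0.77 and 0.56, the latter without a call in edgeR on the 12w libraries alone. Of 34 epithelial junction genes 13 fell and none rose, with a median of −0.54. Gjd2, connexin 36, which couples β-cells electrically, fell from 376, 499 and 525 CPM to 143, 167 and 149.9 CPM (log2 fold change −1.61, SE 0.16, adjusted p = 1.07e-05), and keratin Krt8 fell by 0.91, without a call under library-size scaling.

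**Figure D3:**
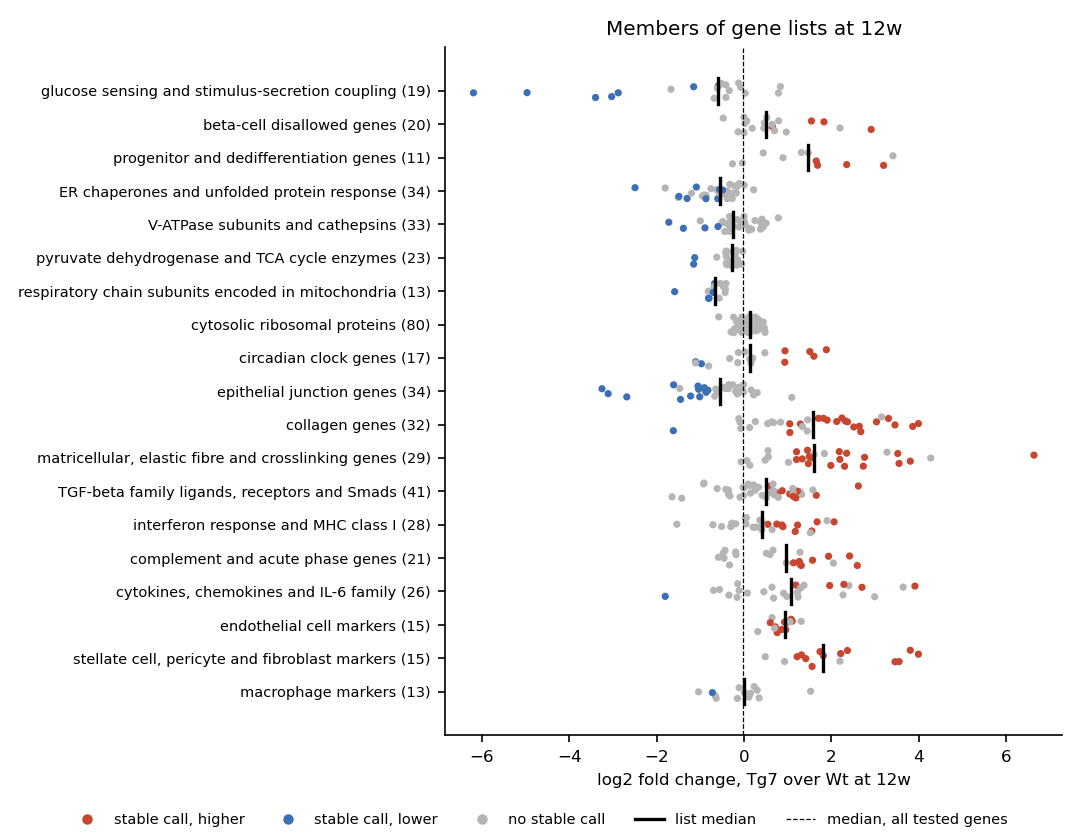
Fitted log2 fold change of Tg7 over Wt islets at 12w for each tested member of 19 gene lists (points, with the number tested in brackets), with the list median as a black bar and the median of all tested genes as a dashed line. Collagen, matricellular and stellate cell lists lie to the right with medians of 1.58 to 1.82, and glucose sensing, mitochondrially encoded and junction lists to the left.

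Some interferon response, cytokine and complement genes rose, and none of the 13 tested macrophage markers had a stable rise. Of the lymphocyte markers only 1 of 11 for T and NK cells and 3 of 7 for B cells passed the filter, and none was called, so the test says little about lymphocytes. Of 28 interferon response and MHC class I genes 9 rose and none fell, with a median of 0.41. The guanylate-binding protein gene Gbp2 rose from 9.96, 9.92 and 8.2 CPM to 39.9, 39.3 and 37.9 CPM (log2 fold change 2.06, SE 0.19, adjusted p = 7.73e-06), Gbp3 by 1.68, the transcription factor Irf1 by 0.75 and the MHC class I gene H2-D1 by 0.55. Of 26 cytokine, chemokine and IL-6 family genes 5 rose and 1 fell, with a median of 1.09. Ccl2, which draws monocytes, rose from 1.51, 0.318 and 0.60 CPM to 11, 10.2 and 12.7 CPM (log2 fold change 3.92, SE 0.52, adjusted p = 1.33e-04), and by 4.55 without Wt 1. The ligands Il6 and Lif rose by 2.7 and 2.29 and stayed at or below 11.7 CPM. Of the receptors of that family, Osmr rose from 3.53, 4.52 and 4.47 CPM to 18.9, 13.3 and 17.2 CPM (log2 fold change 1.96, SE 0.22, adjusted p = 3.01e-05) and Lifr fell from 131, 138 and 159.8 CPM to 37.1, 39.7 and 46.3 CPM (log2 fold change −1.8, SE 0.14, adjusted p = 1.20e-06). Csf1, the macrophage growth factor, rose by 1.19, while its receptor Csf1r fell by 0.72 and had no call under library-size scaling. Of 21 complement and acute phase genes 8 rose and none fell, with a median of 0.97. Clu, clusterin, rose from 210.5, 213 and 171 CPM to 493, 452 and 500.1 CPM, the C1 inhibitor Serping1 by 1.31, C4b by 2.6 and C1ra by 2.42 (3.08 without Wt 2). The summed level of 16 macrophage markers was 120.4, 108.9 and 103.5 CPM in Wt and 98.8, 92.8 and 94.3 CPM in Tg7 libraries. This order depended on the scaling. As an unscaled share of counts the sum was 0.00823%, 0.0087% and 0.00901% in Wt and 0.0103%, 0.0101% and 0.0101% in Tg7 libraries. Csf1r was the only member of the 13 tested with a stable call. T and NK lymphocyte markers summed to 2.2 to 3.66 CPM in Wt and 2.35 to 4.04 CPM in Tg7 libraries.

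All 15 endothelial markers had estimates above 0, 10 rose and the median was 0.93, and their sum was 531.7, 626 and 655.8 CPM in Wt against 1077, 1124 and 1082 CPM in Tg7 libraries. Plvap, which forms the diaphragms of islet capillary pores, rose from 95.3, 107 and 95.3 CPM to 225, 217 and 198 CPM (log2 fold change 1.11, SE 0.13, adjusted p = 4.73e-05), Eng by 0.93 and Pecam1 by 1.09. Of 23 angiogenic factors and receptors 6 rose and none fell. Pgf, placental growth factor, rose from 9.83, 12.9 and 11.6 CPM to 54.9, 67.2 and 59.3 CPM (log2 fold change 2.4, SE 0.14, adjusted p = 1.55e-07), its receptor Flt1 by 0.6 and the apelin receptor Aplnr by 2.43 (3.47 without Wt 2). Markers of stellate cells, pericytes and fibroblasts also lay above 0 in all 15 cases, 12 rose, the median was 1.82, and their sum was 110.7, 147.7 and 178.5 CPM in Wt against 486.7, 461.3 and 489 CPM in Tg7 libraries. That list shares Col1a1, Col1a2, Col3a1, Col6a3, Dcn and Lum with the matrix lists, and the part of stromal cell number in the matrix rises was not tested. Schwann cell markers summed to 13.5 to 26.2 CPM in Wt and 24.6 to 32.9 CPM in Tg7 libraries, and of 8 tested, 3 were called higher but not with every single library left out. Of the other endocrine cells, the alpha cell list had 1 stable call in 9, the vitamin D-binding protein gene Gc, from 213, 223 and 269 CPM to 715, 614 and 684 CPM (log2 fold change 1.51, SE 0.13, adjusted p = 2.90e-06). Sst, of delta cells, was at 4596, 3481 and 1861 CPM in the Wt libraries and 2809.5, 2007 and 2425 CPM in the Tg7 libraries (log2 fold change −0.46, SE 0.27, adjusted p = 0.26), and Ppy, of pancreatic polypeptide cells, had a log2 fold change of 0.26 (adjusted p = 0.6). The summed acinar list ran from 111.2 to 181.4 CPM in Wt and from 77.4 to 146.6 CPM in Tg7 libraries, with 1 stable call among 14 tested. Among the remaining lists Hbb-b1 of red cells rose by 1.53, and Pparg on the adipocyte list fell by 2.45 while Fabp4 on the same list gave 1.10 (adjusted p = 0.046, without a stable call). Msln, which fell by 5.41, was the only 1 of 5 listed mesothelial markers that was tested. It held 34.4, 56.1 and 44.1 CPM of a mesothelial sum of 34.7, 56.2 and 44.1 CPM in the Wt libraries. The only stable call of 6 ductal markers was Spp1. In Tg7 1, Spp1 and Krt7 held 490 and 448 CPM of a ductal sum of 1030 CPM, and Krt19 held 2.71 CPM. The delta cell, pancreatic polypeptide cell, hepatocyte and sex-linked lists held no stable call, and neither did the lymphocyte lists, where few members were tested.

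**Figure D4:**
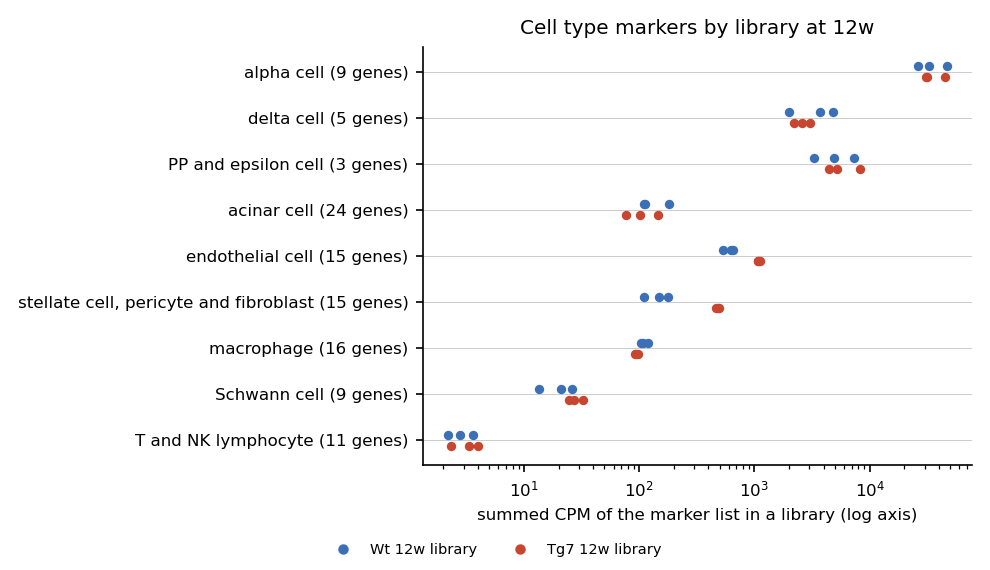
Summed level of 9 cell type marker lists in each 12w library, in CPM on a log axis, with Wt libraries in blue and Tg7 libraries in red. The 3 Tg7 libraries lie above the 3 Wt libraries for endothelial (1077 to 1124 against 531.7 to 655.8 CPM) and stellate markers, below them for macrophage markers, and the groups overlap for alpha, delta and acinar markers. As unscaled shares of counts, macrophage markers were higher in the 3 Tg7 libraries than in the 3 Wt libraries.

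The effect at 12w differed from that at 2w for 188 genes, 1.18% of those tested, with the 12w effect higher for 139 (0.871%) and lower for 49 (0.307%). This count depended on single libraries: it was 82, 91 and 85 without Tg7 12w 1, 2 and 3, 87 and 91 without Wt 2w 2 and 3, 113 without Tg7 2w 3 and 579 without Wt 12w 4. The largest gains were those of Moxd1, with a difference of 6.76 ± 1.3 (log2, SE, adjusted p = 0.022), and Bai1, with 4.76 ± 0.61 (adjusted p = 0.0016). Bai1 was 0.591 ± 0.185 CPM in Wt and 2.59 ± 0.784 CPM in Tg7 islets at 2w, and at 12w it was 0.117 ± 0.0467 CPM in Wt and 14 ± 1.58 CPM in Tg7 islets (SD, n = 3). Astn1 and Scn7a, a neuronal guidance protein and a sodium channel, had no call at 2w (log2 fold changes 0.71 and 0.25) and rose at 12w by 4.51 and 3.85. Pdyn, prodynorphin, was lower in Tg7 islets at 2w (−2.23) and gave 1.12 at 12w without a stable call, a difference of 3.35 ± 0.54 (adjusted p = 0.0079). In the other direction Nupr1, a stress-induced nuclear protein, went from 0.9 at 2w to −3.2 at 12w (difference −4.1 ± 0.72, adjusted p = 0.014), and at 12w stood at 22.1, 42.3 and 46.2 CPM in the Wt libraries and 4.0, 3.32 and 4.75 CPM in the Tg7 libraries. Tmem215 and Msln were already lower at 2w, with log2 fold changes of −3.13 and −1.83, and lower still at 12w, with differences of −3.63 ± 0.35 and −3.58 ± 0.31. The remaining large losses were Rpp25 (−3.26 ± 0.69), Cib3 (−3.03 ± 0.57) and Rsph4a, a radial spoke protein of cilia (−2.56 ± 0.45). Sorcs2 and Pcp4l1 had the smallest p of the difference among the genes named here, with 3.03 ± 0.24 and 2.7 ± 0.21 (both adjusted p = 3.77e-05). None of the 15 endothelial markers had a call at 2w, and the difference passed for Eng (0.83 ± 0.16) and Pecam1 (0.91 ± 0.2).

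**Figure D5:**
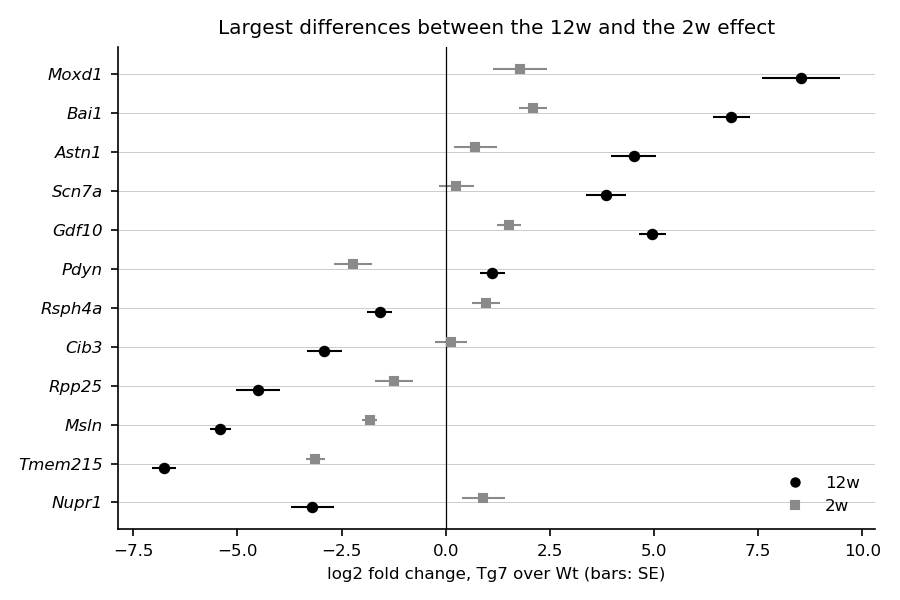
Fitted log2 fold change of Tg7 over Wt islets with its standard error at 12w (black circles) and at 2w (grey squares) for the 6 largest gains and 6 largest losses of effect. Pdyn lies below 0 at 2w and above 0 at 12w, and Nupr1, Rsph4a and Cib3 the reverse, with Cib3 at 0.12 at 2w.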

How the data were processed

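RNA was measured in bulk islets, with 3 Wt and 3 Tg7 libraries at 12w and 6 libraries at 2w. The authors deposited raw counts per gene for 37991 Ensembl genes, made, per the labels and methods, with bcl2fastq 2.20.0, Trimmomatic, TopHat2 2.0.11 on mm9 (NCBIM37) and featureCounts. The sources used here give neither the strand setting nor the treatment of multimapping reads. Duplicate or near-identical genes (Ins1 and Ins2, Mt1 and Mt2, Gbp2 and Gbp3, MHC class I, globins) are therefore uncertain. The filterByExpr function kept 15961 genes (minimum count 10 and minimum total 15), and their counts were scaled by TMM and fitted in edgeR 4.0.16 (R 4.3.3) with glmQLFit and glmQLFTest in 1 model of 4 groups, from which the 12w effect, the 2w effect and their difference were taken. P-values were Benjamini-Hochberg adjusted over all tested genes. DESeq2 1.42.0, other scalings, filters, a replicate block and each left-out library were alternatives. On data simulated for 15961 genes of the 12w comparison, 100 genes were given each fold. Of the 2-fold changes 55.6% were recovered and of the 4-fold changes 84%, and 6.08% of the 148 calls were false. These were calls of a single fit, and the recovery of stable calls was not simulated. The simulation also gave each gene 1 spread for all groups, whereas the Wt libraries varied more than the Tg7 libraries.

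Named genes were the 12 highest and 12 lowest stable fold changes at 10 CPM or more in the higher group with no overlap between groups, the 5 smallest p in each direction, the 10 most abundant genes of each group, up to 4 members of each list, the 6 largest gains and losses of effect between ages, and the 5 seed-matched genes. Abcc8, Kcnj11, Slc2a2, Slc30a8, Nkx6-1, Hspa5, Lif, Osmr, Per3, Nfil3, Prdx4, Cish, Sst and Ppy were chosen after their values were seen. Comparisons and gene lists were chosen with earlier results of these data known. Seed matches were searched on the sense strand of mm9 3′ UTRs. A few members of the lists are not reported here.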

Additional observations from a re-analysis of the deposited data

Results flagged for a closer look

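The effect of Tg7 at 12w differed from the effect at 2w for 39 of the genes named above, by edgeR's test of the difference itself with a Benjamini-Hochberg adjusted p under 0.05. Values are log2 differences, the 12w effect minus the 2w effect. Many of these genes were named for their size of effect at 12w or for this difference.

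Of the matrix genes named, the effect was higher at 12w for Col5a1 by 3.284, Col1a1 by 2.846, Col3a1 by 2.626, Adamts2 by 2.498, Lama5 by 2.066, Col1a2 by 1.495, Col4a2 by 1.275 and Col4a1 by 1.034. For the vascular genes Aplnr, Pecam1 and Eng the effect was higher by 2.247, 0.9082 and 0.8257. These are differences of effect, not rises of level with age. Of these matrix genes only Lama5 had a higher Tg7 mean at 12w (72.2 CPM) than at 2w (61.2 CPM). Col1a1 had means of 41.8 CPM in Wt and 92.7 CPM in Tg7 islets at 2w, and 3.44 and 53.8 CPM at 12w. Aplnr had 28.1 and 31.9 CPM at 2w, and 0.733 and 4.0 CPM at 12w. Further gains, among genes picked largely for this difference or for their change at 12w, were Moxd1 at 6.758, Bai1 at 4.763, Astn1 at 3.796, Scn7a at 3.596, Gdf10 at 3.444, Camk2a at 3.182, Miat at 3.106, Sorcs2 at 3.03, Pcp4l1 at 2.698, Iqsec3 at 2.109 and Gpr179 at 1.882. The Wt level of Moxd1 rests on 1 count at 12w. Gains were also seen for Pdyn by 3.347, Gast by 3.072, Chgb by 1.688 and Cd81 by 1.015, and for the cytokine receptor gene Osmr by 1.464.

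The 12w effect lay below the 2w effect for Nupr1 (−4.097), Tmem215 (−3.629), Msln (−3.582), Rpp25 (−3.262), Cib3 (−3.035) and Rsph4a (−2.56). Smaller losses were those of Adora1 (−1.866), Gad1 (−1.391), the seed-matched gene Abhd2 (−1.314), the zinc transporter gene Slc30a8 (−1.15), Maob (−1.064) and the cytokine receptor gene Lifr (−0.9223).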

How the results depend on the processing

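Of 2015 stable calls, which were chosen for passing with each 12w library left out, edgeR on the 12w libraries alone called 1966, DESeq2 2012, library-size scaling 1529, upper-quartile scaling 2015, the stricter filter 1922 and the replicate block 1980. Same-numbered Wt and Tg7 libraries at 12w share only the numbers 1 and 2 and did not deviate together (correlations −0.0868 and −0.00905), so the numbers were not treated as pairs. Library-size scaling gave 5198 higher and 360 lower genes. Over left-out libraries the 3772 calls ranged from 2417 to 4036, the higher ones from 1403 to 2148 and the lower ones from 1012 to 2048. Genes with different effects at the 2 ages numbered 561 with DESeq2, 347 with library size, 420 without a filter and 502 with the replicate block, and 82 to 579 over left-out libraries. The cause was not tested. The insulin share differed by −15.81 percentage points, or −20.36 to −12.79 with a library left out. Calls lost with other fits are given beside the genes.

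Log2 fold changes of named genes reversed only for genes without a stable call. With library-size scaling they were 0.03709 for Abcc8, 0.4607 for Gcg, 0.2765 for Iapp, 0.08566 for Nkx6-1 and 0.03295 for Sst. Upper-quartile factors gave 0.05704 for Gcg, the stricter filter 0.0001739 for Gcg, and the replicate block −0.2804 for Malat1. With single libraries left out, values ran from −0.1294 to 0.3668 for Chga, −0.2135 to 0.2382 for Gcg, −0.3306 to 0.03143 for Iapp, −0.2886 to 0.5067 for Malat1, −0.07749 to 0.5075 for Ppy and −0.2866 to 0.6558 for Scg2.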
